A study of Mus musculus with 8 samples.

Results

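TPK and TPMR1 are 2 of the 4 mouse models of endometrial cancer in the series, and this comparison sets the 2 TPK libraries directly against the 2 TPMR1 libraries, 4 of the 8 RNA-seq libraries in all. The libraries of each model were taken from their labels. Both models started from uterine organoids of mice that express Cas9 and EGFP from the ubiquitous CAG promoter, and both received a lentiviral sgRNA against Trp53, the tumor suppressor p53, in a vector that also carries mCherry. TPMR1 (TPMPik3r1 in the labels) additionally carried an sgRNA against Pik3r1, the regulatory p85 subunit of class I PI3K, and a retrovirus that overexpresses Myc with luciferase, whereas TPK received neither of these. Engineered cells were transplanted into the left uterus of female nude mice, which lack T cells and still have myeloid and NK cells. The labels call the sequenced material tumor organoids and give the strain only as nude mice, whereas the methods describe tumor tissue. The tumors thus differ by several alleles at once, and a difference between them cannot be assigned to any one of these. The labels do not tie the libraries to animals, whereas the legends of the study count the tumors of a model as separate mice.

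As background, the uterine lining is a simple columnar epithelium held together by E-cadherin and claudins, and its glands express Pax8 and Foxa2. Endometrial carcinomas can show squamous differentiation, in which cells under p63 switch on keratins of stratified epithelium, desmosomes and a cornified envelope. Steroidogenic cells of the gonads and adrenal cortex are instead set by Nr5a1 and Gata4, which act on genes that turn cholesterol into steroid hormones. PI3K signaling runs from a p110 catalytic subunit such as Pik3ca, held in check by p85, to Akt and mTOR.

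The guides show which sites were aimed at, with the PAM read from the transcript in capitals. The Trp53 guide lies at chr11:69587439-69587457 (GRCm38, plus strand, coding sequence of exon 4). The Pik3r1 guide lies at chr13:101690544-101690562 (plus strand, antisense to the gene, coding sequence of exon 8 of the longest principal transcript). Both sites are in all 4 coding transcripts annotated for their gene.
Trp53 guide: gtgaagccctccgagtgtcAGG
Pik3r1 guide: ttggctacagtagtgggctTGG

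Levels are given in CPM, counts scaled to a common library size by the trimmed mean of M-values (TMM). Trp53 was at 38.3 and 36.9 CPM in TPK and at 33.2 and 55.1 CPM in TPMR1, so the groups overlapped (adjusted p = 0.645, edgeR). Pik3r1 was at 159 and 156 CPM in TPK and at 101 and 51.3 CPM in TPMR1. Its groups did not overlap, with Pik3r1 lower in the model that carries its guide, but the log2 fold change of 1.05 ± 0.42 (SE) did not pass the test (adjusted p = 0.151, edgeR). The lower level was not particular to that model. In TPMCa, another model of the series that carries no Pik3r1 guide, Pik3r1 was at 78.1 and 80.9 CPM. Myc was at 154 and 92.8 CPM in TPK and at 606 and 466 CPM in TPMR1, 4.35-fold more in the model with introduced Myc, again without passing the test (adjusted p = 0.200). Pik3ca overlapped between the groups, at 66.6 and 80.1 CPM against 70.2 and 73.1 CPM. A small insertion or deletion need not lower a transcript, so the RNA of Trp53 and Pik3r1 does not check the edits themselves, and the Myc counts can hold reads from the introduced cDNA.

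The TPK libraries held 19110458 and 15748396 counts and the TPMR1 libraries 26943611 and 16598597 counts. The 2 TPMR1 libraries stood apart from each other: 2701 genes, 17% of those tested, differed more than 4-fold between them, against 972 genes (6.12%) between the TPK libraries. Their Spearman correlation was 0.873 against 0.95 for TPK, over 15875 genes that are not independent replicates. In summed level TPMR1 replicate 1 was higher than replicate 2 over the gonadal and steroid list, although only 9 of its 26 tested genes were higher there, and lower over the neutrophil, macrophage and fibroblast matrix lists.

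Of 15875 genes tested, 1641 differed between TPK and TPMR1 at an adjusted p under 0.05 (10.3% of all genes; edgeR quasi-likelihood test). The split was uneven, with 1116 higher in TPK (7.03%) and 525 lower (3.31%). A looser rule, unadjusted p under 0.05 with more than a 2-fold change, took 4031 genes (25.4%). With 2 libraries a group, an exact permutation test of a single gene cannot go below p = 0.333 two-sided, so these calls rest on a spread shared over genes and over all 8 libraries. Fitted on the 4 libraries alone, 301 genes passed, 278 higher and 23 lower in TPK. Without TPK replicate 1 the fit over the other libraries called 361 genes and without TPK replicate 2 it called 208, so many calls need both TPK libraries.

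**Figure D1:**
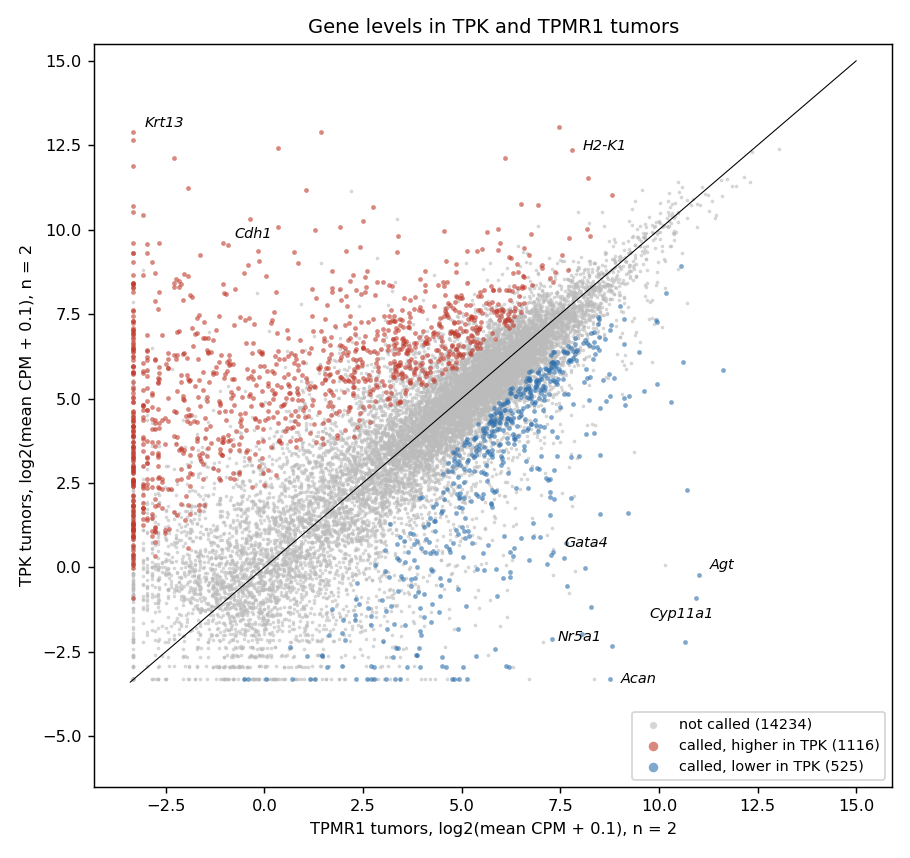
Mean level of each tested gene in TPK (vertical axis) against TPMR1 (horizontal axis), both as log2(mean CPM + 0.1) over 2 libraries; red and blue points are the 1116 genes called higher and the 525 called lower in TPK, grey points were not called, and the line marks equal levels. Red points reach up the left edge, where genes such as Krt13 had no count in TPMR1.

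Most keratins of stratified epithelium were abundant in TPK tumors and at or near 0 in TPMR1 tumors. Of 14 tested keratins of stratified epithelium, 11 were called higher in TPK, none lower, and 10 of the 15 listed had no count in either TPMR1 library. Krt13, a keratin of non-cornified mucosa and the gene with the largest fitted change among well-expressed genes, was at 8128 and 7063 CPM in TPK without a single count in TPMR1, a bound of at least 53695-fold higher (with 3 counts per TPMR1 library as the floor). Krt5, the basal keratin on chromosome 15, was at 7358 and 5506 CPM against 0 and 0, at least 45469-fold higher. Its partner Krt14 was at 6517 and 4358 CPM against 1.24 and 1.11 CPM, a 4591-fold difference (log2 fold change 12.16 ± 1.36, adjusted p = 0.00706, edgeR). Both TPK libraries were high and both TPMR1 libraries at or near 0 in each case.

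Keratins of other layers followed the same order. The hyperproliferative keratin Krt6a was at 5374 and 2207 CPM in TPK without a count in TPMR1, at least 26795-fold higher, and Krt6b was at 2045 and 885 CPM against 0 and 0; these 2 genes are near-identical, so the counting could split their reads. Krt4, the mucosal partner of Krt13, was at 2481 and 845 CPM against 0 and 0. The basal Krt15 was at 725 and 814 CPM against 0 and 0.0556 CPM. Krt17 was at 507 and 558 CPM against 0 and 0. Krt1, a keratin of the dry epidermis, was low even in TPK, at 11.7 and 5.27 CPM, and was not called (adjusted p = 0.163). The median log2 fold change over the 14 keratins was 15.11, or 12.02 with genes at 0 in TPMR1 set to their bound, against -0.02 over all genes tested. With one TPK library left out, 5 keratins were still called in each case, and Krt13, Krt4 and Krt6b were not (adjusted p from 0.0538 for Krt4 to 0.105 for Krt6b). Without TPMR1 replicate 1 or 2 the keratin counts were 8 and 9.

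Of 18 transcription factors of squamous epithelium, 15 were called higher in TPK and none lower; leaving out either TPK library left 6, leaving out TPMR1 replicate 1 or 2 left 12 and 14, and the fit on 4 libraries called 9. The list was not silent in TPMR1, with a sum of 102 and 213 CPM against 3285 and 3067 CPM in TPK. Trp63, which encodes the master regulator p63, was at 231 and 201 CPM in TPK and at 0 and 10.4 CPM in TPMR1; the groups did not overlap, but the test was not passed (log2 fold change 5.39 ± 1.85, adjusted p = 0.110). It was called by DESeq2 and when either TPMR1 library was left out. Grhl2, a grainyhead factor that maintains epithelial junction genes, was at 103 and 154 CPM against 0.194 and 0.0556 CPM (log2 fold change 9.84 ± 0.93, adjusted p = 0.00470). Grhl3, which acts in barrier formation, was at 92.0 and 63.2 CPM against 0.232 and 0.500 CPM. Pitx1, a homeobox factor, was at 501 and 344 CPM against 0.0387 and 0.0556 CPM, 1 count in each TPMR1 library, and the ratio of summed counts was 9379 (exact 95% counting interval 2596 to 77456). Barx2 was at 63.5 and 67.2 CPM against 0.155 and 0. Klf5 was at 107 and 116 CPM against 0.968 and 1.83 CPM (log2 fold change 6.32 ± 1.29, adjusted p = 0.0314), a call lost with any library of TPK, TPM or TPMR1 left out (adjusted p from 0.0527 to 0.125). Zfp750, a p63 target of late differentiation, was not called: TPK had 143 and 147 CPM, and TPMR1 had 42.8 and 0.333 CPM. Without TPMR1 replicate 1 it passed.

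**Figure D2:**
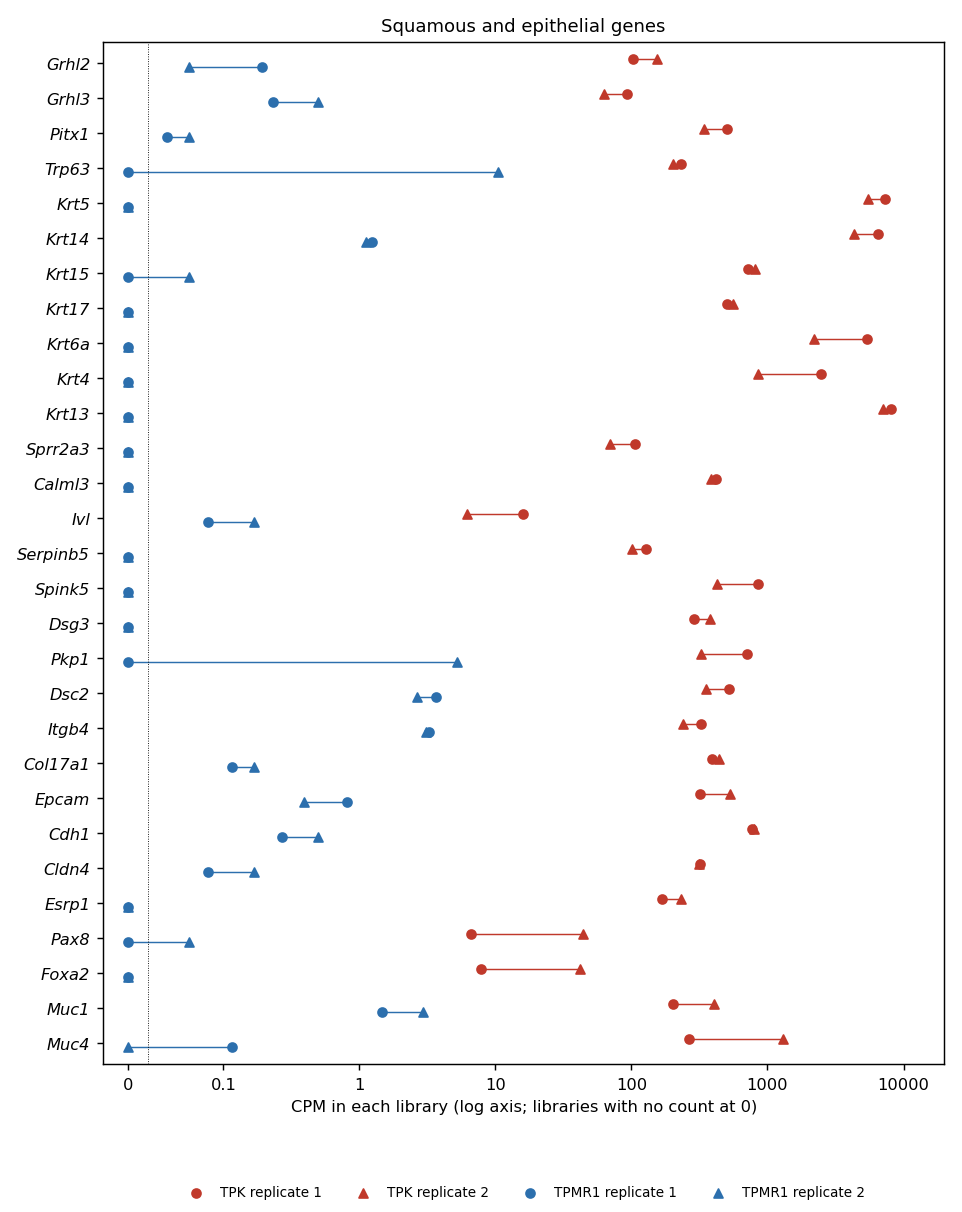
CPM of squamous and epithelial genes in each library on a log axis, with libraries without a count drawn at 0 left of the dotted line; circles are replicate 1 and triangles replicate 2, red for TPK and blue for TPMR1. All TPK points lie right of all TPMR1 points, and Trp63 and Pkp1 show the widest gap between the TPMR1 libraries.

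Of 37 tested genes of the cornified envelope, the cross-linked protein shell of the outermost squamous cells, 18 were called higher in TPK and none lower, against 8 and 7 without TPK replicate 1 or 2, 14 and 15 without TPMR1 replicate 1 or 2, and 9 in the fit on 4 libraries. The list summed to 7663 and 3670 CPM in TPK and to 460 and 162 CPM in TPMR1. Ivl, the envelope precursor involucrin, was at 15.9 and 6.20 CPM against 0.0774 and 0.167 CPM (log2 fold change 6.47 ± 1.01, adjusted p = 0.0175). Tgm1, a transglutaminase that cross-links the envelope, was at 305 and 194 CPM against 0.620 and 4.11 CPM. The small proline-rich genes Sprr2f (91.8 and 105 CPM) and Sprr2a3 (106 and 69.5 CPM) had no count in TPMR1, with bounds of at least 696-fold and 621-fold, though the Sprr2 genes are close copies whose reads may be shared. Lor, which encodes loricrin of cornified skin, was at 12.7 and 2.77 CPM against 0.155 and 0.167 CPM and was not called (adjusted p = 0.162), and neither was Sprr1b (85.8 and 1.32 CPM against 0 and 0). Of the genes named here, Ivl (adjusted p up to 0.0616) and Tgm1 (up to 0.107) lost the call with either TPK library left out, and Tgm1 also without TPMR1 replicate 1. Lor and Sprr1b differed several-fold between the TPK libraries themselves.

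Promoters were searched for 5 short motifs, and those of Ivl and Sprr2f are shown because they hold a match; they were picked after the search, and that of Krt5, considered first, held none. AP-1 dimers bind TGANTCA. Searched on both strands of the 250 bases before each start site, it occurred in 13 of the 32 envelope genes with a RefSeq promoter entry (40.6%), several of which are close copies, in 12.1% of genes called higher in TPK, in 4.56% of those called lower and in 6.3% of all 11850 tested genes with an entry. It was in 1 of 6 stratified keratins and 0 of 8 squamous transcription factors with an entry. Letters of the motif are in capitals, and a match describes letters, not binding. Ivl runs over chr3:92573736-92573985 (GRCm38.p6, minus strand) and Sprr2f over chr3:92364937-92365186 (plus strand).
Ivl: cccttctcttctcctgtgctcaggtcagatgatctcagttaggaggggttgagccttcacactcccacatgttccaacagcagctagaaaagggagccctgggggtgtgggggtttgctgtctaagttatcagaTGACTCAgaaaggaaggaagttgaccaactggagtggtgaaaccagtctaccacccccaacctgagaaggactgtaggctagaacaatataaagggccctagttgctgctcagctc
Sprr2f: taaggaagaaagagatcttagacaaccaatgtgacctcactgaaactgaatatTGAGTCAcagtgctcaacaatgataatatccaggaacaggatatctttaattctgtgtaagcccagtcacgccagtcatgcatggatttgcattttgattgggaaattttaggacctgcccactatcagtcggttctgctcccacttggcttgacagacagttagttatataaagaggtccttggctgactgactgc

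Proteases and their inhibitors of squamous epithelium were called higher in TPK in 10 of 22 tested cases and lower in none, with 3 and 4 left without TPK replicate 1 or 2, 6 and 8 without TPMR1 replicate 1 or 2 and 6 in the fit on 4 libraries. Serpinb5, the serpin maspin, was at 127 and 101 CPM against 0 and 0, at least 807-fold higher. Spink5, an inhibitor of skin kallikreins, was at 852 and 429 CPM against 0 and 0, a call lost with either TPK library left out (adjusted p up to 0.0793). Tmprss11g, a serine protease of mucosal epithelium, was at 154 and 94.1 CPM against 0 and 0. The kallikrein Klk7 was barely present, at 1.14 and 0 CPM in TPK, and was not called. Calml3, a calmodulin-like protein of epithelial cells, was at 421 and 385 CPM in TPK and at 0 in TPMR1, and the calcium-binding S100a14 was at 800 and 466 CPM against 0 and 0. Aqp4, a water channel, was at 472 and 1089 CPM against 0 and 0, at least 5517-fold higher.

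Cell attachment genes were called higher in TPK in 11 of 21 cases and lower in none, without TPK replicate 1 or 2 in 8 and 7, and without TPMR1 replicate 1 or 2 in 13 and 15; the list summed to 614 and 742 CPM in TPMR1. Dsg3, a desmosomal cadherin of stratified epithelium, was at 287 and 378 CPM against 0 and 0. Dsc2 was at 524 and 352 CPM against 3.68 and 2.67 CPM (log2 fold change 7.10 ± 0.61, adjusted p = 0.00451). The hemidesmosome genes Itgb4 (327 and 239 CPM against 3.25 and 3.11 CPM) and Col17a1 (390 and 442 CPM against 0.116 and 0.167 CPM), which anchor basal cells to the basement membrane, were both called, Col17a1 not without TPK replicate 2 (adjusted p = 0.0503, edgeR). Pkp1, a desmosomal plaque gene, had 706 and 325 CPM against 0 and 5.22 CPM and was not called (adjusted p = 0.0613), though DESeq2 called it, as did edgeR with either TPMR1 library left out.

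Genes that simple epithelia share were higher in TPK as well. Of 24 tested genes of simple epithelium, junctions and epithelial splicing, 22 were called higher in TPK and none lower, with a median log2 fold change of 8.64; 14 and 15 were called without TPK replicate 1 or 2, 21 and 22 without TPMR1 replicate 1 or 2, and 13 in the fit on 4 libraries. The list summed to 6648 and 8982 CPM in TPK and to 166 and 81.5 CPM in TPMR1. Cdh1, which encodes E-cadherin, was at 768 and 792 CPM in TPK and at 0.271 and 0.500 CPM in TPMR1, a 2034-fold difference (log2 fold change 10.99 ± 0.49, adjusted p = 0.00107, edgeR). Epcam was at 322 and 527 CPM against 0.813 and 0.389 CPM, 683-fold. Cldn4, a tight junction claudin, was at 318 and 313 CPM against 0.0774 and 0.167 CPM, 2560-fold. Esrp1, which directs epithelial splicing, was at 167 and 230 CPM against 0 and 0. The simple keratin Krt8 was at 94.3 and 515 CPM against 1.55 and 5.84 CPM, and its call was lost in the fit on 4 libraries, and with any library of TPK or TPM, or TPMR1 replicate 1, left out (adjusted p from 0.0601 to 0.138). The defining epithelial markers Cdh1 and Epcam were therefore near 0 in both TPMR1 libraries, although the model was built from uterine organoids. In stained sections the study found well-differentiated glands and no p63 in TPMR1 tumors, and it described them as endometrioid adenocarcinoma. It described TPK tumors as keratinized, p63-positive squamous cell carcinoma. Its own RNA-seq comparison found squamous genes enriched in TPK over TPMCa and TPMR1 tumors. The Cdh1 and Epcam RNA values and the glands seen in TPMR1 sections were not reconciled here. In bulk RNA, fewer epithelial cells and less RNA per cell cannot be told apart.

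Genes of uterine glands split. Of 17 tested genes of Mullerian and gland identity, 7 were called higher in TPK and 1 lower, with 2 and 1 in the fit on 4 libraries and 3 and 1 without TPK replicate 2, and 6 and 1 or 8 and 1 without TPMR1 replicate 1 or 2. Pax8, a Mullerian lineage factor, was at 6.57 and 44.0 CPM against 0 and 0.0556 CPM, and Foxa2, the gland factor, was at 7.83 and 41.8 CPM against 0 and 0. The Pax8 call was lost without TPK replicate 2 (adjusted p = 0.0705, edgeR). The apical mucins Muc1 (202 and 406 CPM against 1.47 and 2.95 CPM) and Muc4 (267 and 1299 CPM against 0.116 and 0) were also called. Esr1, the estrogen receptor, was at 81.7 and 149 CPM in TPK and at 142 and 133 CPM in TPMR1, which overlapped. Greb1, a gene known for its induction by estrogen, ran the other way: 1.37 and 0.989 CPM in TPK against 208 and 99.3 CPM in TPMR1, 129-fold higher in TPMR1 (log2 fold change -7.01 ± 0.60, adjusted p = 0.00451).

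Part of a list of gonadal supporting cell and steroid synthesis genes was higher in TPMR1 than in TPK. Of 26 tested genes of this list, 5 were called lower in TPK (19.2%, against 3.31% of all genes tested). Only 1 was called higher (3.85%, against 7.03%), Fst, which encodes the activin antagonist follistatin. The median log2 fold change was -2.62. Of the 26, 13 were higher in both TPMR1 libraries than in both TPK libraries, against 26.5% of all genes tested. Lower in both TPMR1 libraries were 2, against 31%, and the others of the list overlapped between the groups. Gata4, a transcription factor of gonadal somatic cells, was at 1.09 and 1.45 CPM in TPK and at 137 and 183 CPM in TPMR1, 126-fold (log2 fold change -6.98 ± 0.56, adjusted p = 0.00513), and was called in every alternative tried. Nr5a1, which encodes the steroidogenic factor SF-1, was at 0 and 0.198 CPM in TPK, 3 counts in all, and at 753 and 148 CPM in TPMR1, with a ratio of summed counts of 5495 (exact 95% counting interval 1880 to 26648). Cyp11a1, the enzyme of the first step from cholesterol to steroids, was at 0.800 and 0.0659 CPM against 3768 and 182 CPM (log2 fold change -12.09 ± 2.74, adjusted p = 0.0409). Cyp17a1, a later enzyme of androgen synthesis, was at 0 in both TPK libraries and at 54.2 and 6.61 CPM in TPMR1, at least 165-fold higher there. Both TPMR1 libraries lay above both TPK libraries in these 4 genes, but replicate 1 exceeded replicate 2 several-fold in Nr5a1, Cyp11a1 and Cyp17a1.

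Other genes of the list followed one TPMR1 library more than the other. Star, which carries cholesterol into mitochondria, was at 12.6 and 6.13 CPM in TPK and at 468 and 18.5 CPM in TPMR1 and was not called (adjusted p = 0.0757), though it passed without TPMR1 replicate 2. Foxl2, a granulosa cell factor, was high in the other library, with 0.310 and 33.1 CPM in TPMR1 against 0 and 0 in TPK, and was not called (adjusted p = 0.0788), though it passed without TPMR1 replicate 1. The summed level of the list was 350 and 272 CPM in TPK and 8612 and 1240 CPM in TPMR1. Without TPMR1 replicate 1, 6 genes of the list were called lower in TPK, though Cyp11a1 and Cyp17a1 were no longer among them; without TPMR1 replicate 2, 11 were; in the fit on 4 libraries, and with either TPK library left out, 1 was. Nr5a1 lost its call with either TPK library left out (adjusted p = 0.088 and 0.0981), Cyp11a1 and Cyp17a1 with any one of 7 of the 8 libraries left out (adjusted p up to 0.221 and 0.179), whereas DESeq2 called 14 genes of the list lower in TPK. Scarb1, a receptor that takes up cholesterol from lipoproteins, was at 54.3 and 36.3 CPM against 136 and 99.2 CPM, a call lost with any one of 7 libraries left out (adjusted p up to 0.214). Akr1cl, an aldo-keto reductase of no list, was at 0.229 and 0 CPM against 2947 and 268 CPM and was not called with either TPK library left out (adjusted p up to 0.133).

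**Figure D3:**
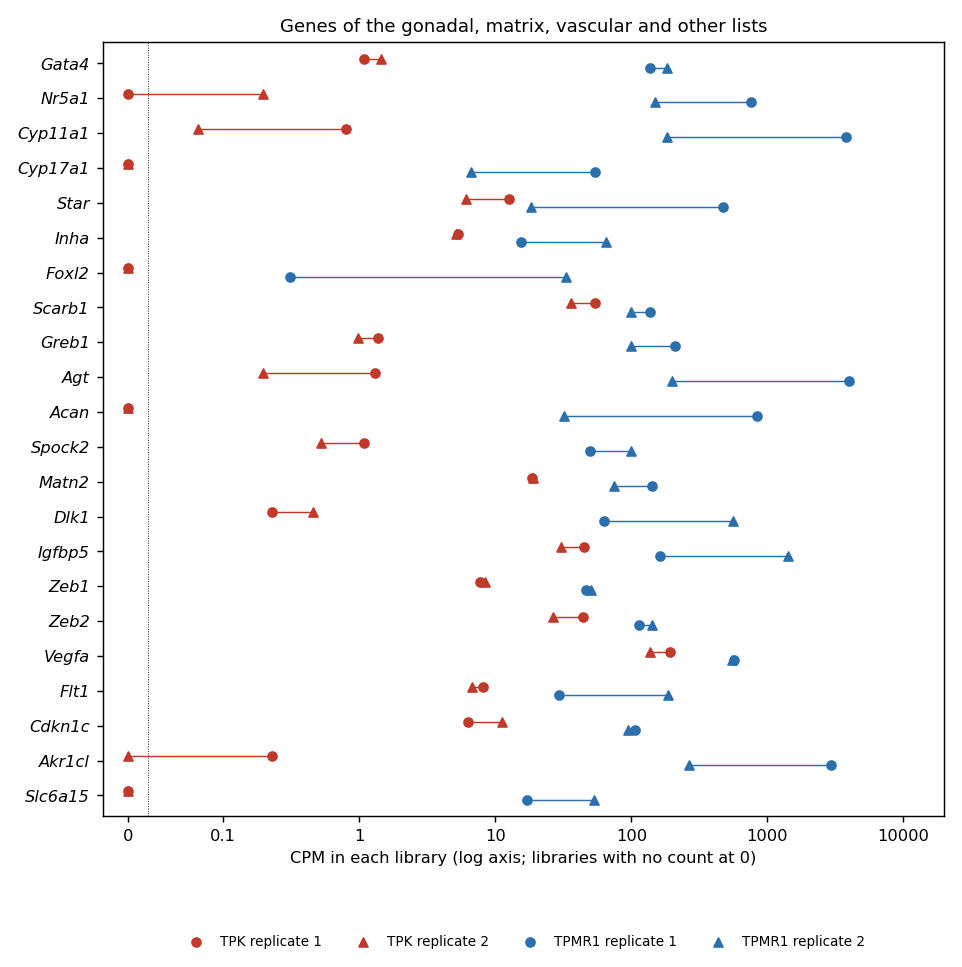
CPM of genes of the gonadal, matrix, imprinted and vascular lists and of large differences in each library, on a log axis with 0 at the left edge; symbols as circles for replicate 1 and triangles for replicate 2, TPK red and TPMR1 blue. Gata4, Zeb1, Cdkn1c and Vegfa have TPMR1 points close together, whereas Cyp11a1, Agt, Star and Acan spread over more than 1 decade.

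Agt, the precursor of angiotensin, was at 1.31 and 0.198 CPM in TPK and at 3969 and 199 CPM in TPMR1 (log2 fold change -11.39 ± 1.89, adjusted p = 0.0198). Acan, the proteoglycan aggrecan of cartilage and ovarian follicles, was at 0 in both TPK libraries and at 837 and 32.2 CPM in TPMR1, at least 2355-fold higher. It was among 3 of 20 large proteoglycan and cartilage-type matrix genes called lower in TPK (15%, against 3.31% of all genes tested). The others were Spock2 (1.09 and 0.527 CPM against 50.1 and 98.7 CPM) and Matn2 (18.6 and 18.9 CPM against 141 and 74.6 CPM). Without TPMR1 replicate 1 that list had 4 genes lower and none higher, and without replicate 2 it had 3 lower and 2 higher. The imprinted gene Dlk1 was at 0.229 and 0.461 CPM against 63.2 and 555 CPM. The amino acid transporter Slc6a15 was at 0 and 0 against 17.2 and 53 CPM. Agt, Acan, Matn2, Dlk1 and Slc6a15 did not pass in the fit on 4 libraries. With either TPK library left out, Agt, Acan, Spock2, Matn2 and Dlk1 did not pass (adjusted p up to 0.17, for Acan), and Acan also failed with any library of TPM or TPMCa left out and Matn2 without TPM replicate 1.

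Few mesenchymal genes were called. Of 17, 2 were called lower in TPK (11.8%, against 3.31% of all genes tested) and 1 higher (5.88%, against 7.03%). In each direction 4 of the 17 did not overlap, against 26.5% (lower) and 31% (higher) of all genes tested. The median log2 fold change was -0.92, and it was -1.66 without TPMR1 replicate 1 and 0.19 without replicate 2. Zeb1, a repressor of E-cadherin, was at 7.77 and 8.37 CPM in TPK against 46.5 and 51.0 CPM in TPMR1 (log2 fold change -2.59 ± 0.30, adjusted p = 0.00800), and Zeb2 was at 44.5 and 26.7 CPM against 114 and 142 CPM. Snai2, a related repressor that basal epithelium also uses, ran the other way, at 19.1 and 19.2 CPM against 2.98 and 2.45 CPM. Vim, which encodes vimentin, was at 451 and 206 CPM against 261 and 1692 CPM, which overlapped. The calls for Zeb1, Zeb2 and Snai2 were lost in the fit on 4 libraries and with either TPK library left out (adjusted p up to 0.142, for Zeb2), and that for Zeb2 also with either TPM library left out or TPMCa replicate 1. Fibroblast and interstitial matrix genes summed to 12158 and 3912 CPM in TPK and to 2211 and 10811 CPM in TPMR1, so neither group was uniformly high.

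Antigen presentation and interferon-response genes lay higher in both TPK libraries throughout their list. Of 30 tested, 19 were called higher in TPK and none lower, and all 30 had both TPK libraries above both TPMR1 libraries, against 31% of all genes tested; the median log2 fold change was 3.93. H2-K1, a classical MHC class I heavy chain, was at 5634 and 4860 CPM in TPK and at 354 and 92.5 CPM in TPMR1 (log2 fold change 4.56 ± 0.73, adjusted p = 0.0184), and H2-D1 was at 737 and 652 CPM against 57.8 and 33.7 CPM. Class I genes are close copies, so their separate counts are uncertain. Isg15, an interferon-induced ubiquitin-like protein, was at 405 and 341 CPM against 19.6 and 10.8 CPM, and Ifit1, an interferon-induced RNA-binding protein, was at 277 and 428 CPM against 9.02 and 5.28 CPM, 49.1-fold. B2m, the class I light chain, named after its values were seen, was at 2844 and 3132 CPM against 395 and 198 CPM, 10.1-fold.

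Cd74, the class II invariant chain, was higher in both TPK libraries but did not pass (adjusted p = 0.0502). Macrophages also express class II genes. The macrophage list summed to 3988 and 2683 CPM in TPK and to 422 and 1118 CPM in TPMR1, 13 of 15 of them higher in TPK without overlap (31% of all genes tested) and 0 called by edgeR (2 without TPMR1 replicate 2, and 4 by DESeq2), with none at 0 in both libraries of a group. Lymphocyte genes were low but also higher in TPK, summing to 37.3 and 13.4 CPM against 2.40 and 8.12 CPM in TPMR1. Of 12 tested, 8 were higher in TPK without overlap (31% of all genes tested) and 1 was called higher (8.33%, against 7.03% of all genes tested). The part of these cells in the MHC and interferon difference was not tested. Without TPMR1 replicate 1, 18 genes of the interferon list were called, and without replicate 2, 16 were; without TPK replicate 1 or 2 the counts were 4 and 3, in the fit on 4 libraries 9, and by DESeq2 28. H2-K1 and B2m were among those lost with either TPK library left out (adjusted p up to 0.0738 and 0.0736).

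**Figure D4:**
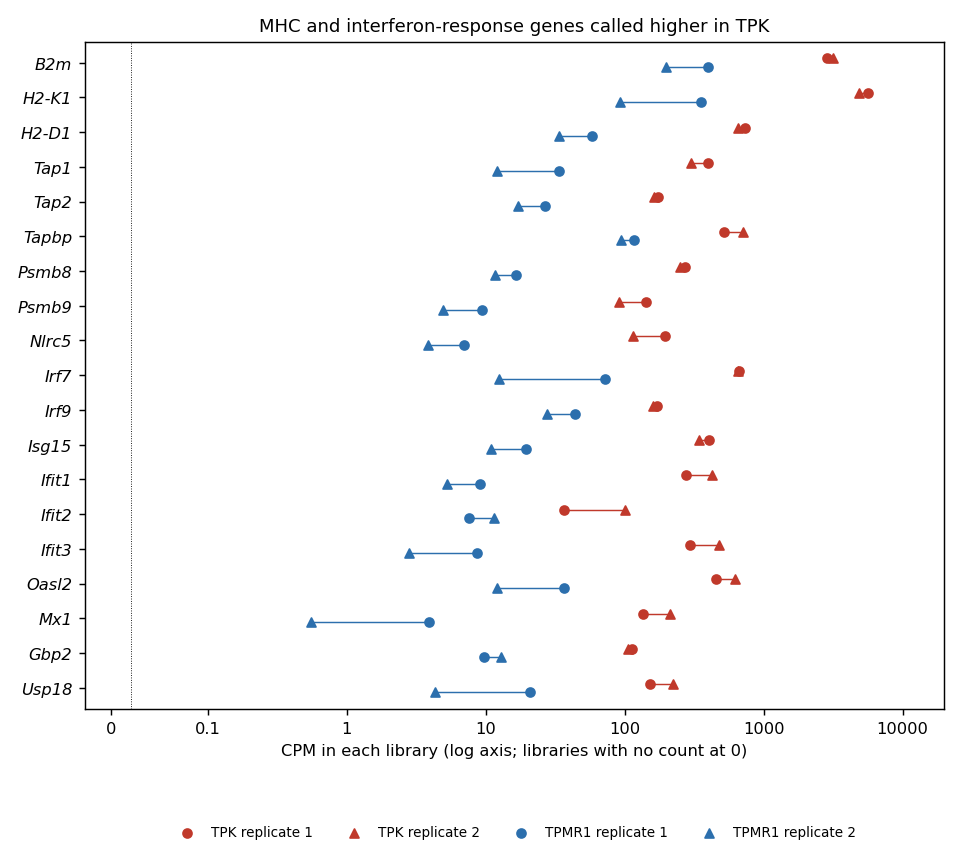
CPM of the 19 genes of the MHC and interferon-response list called higher in TPK, in each library on a log axis; circles are replicate 1, triangles replicate 2, red TPK and blue TPMR1. Both red points lie right of both blue points in each of the 19 genes.

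The promoters of B2m, Isg15 and Ifit1 are printed because they hold the core of the interferon-stimulated response element; they too were picked after the search, and that of H2-K1, considered first, held no match. The core, GAAA followed by any 2 bases and a further GAAA, was searched on both strands of the 250 bases before the start. The core occurred in 9 of the 22 genes of the list with an entry (40.9%), against 3.22% of all tested genes with an entry, 6.39% of genes called higher in TPK and 2.03% of those called lower. The list was itself chosen for response to interferon. Its high share therefore follows from that choice and is not a result about these tumors. Capitals mark the matches, which overlap in Isg15; on Ifit1 both lie on the other strand. B2m spans chr2:122147437-122147686 (plus strand), Isg15 chr4:156200819-156201068 (minus strand) and Ifit1 chr19:34640639-34640888 (plus strand), all GRCm38.p6.
B2m: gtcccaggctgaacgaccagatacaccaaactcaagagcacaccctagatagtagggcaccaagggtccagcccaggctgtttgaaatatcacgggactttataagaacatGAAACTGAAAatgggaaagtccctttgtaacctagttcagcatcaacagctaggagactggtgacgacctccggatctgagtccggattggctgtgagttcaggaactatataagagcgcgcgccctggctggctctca
Isg15: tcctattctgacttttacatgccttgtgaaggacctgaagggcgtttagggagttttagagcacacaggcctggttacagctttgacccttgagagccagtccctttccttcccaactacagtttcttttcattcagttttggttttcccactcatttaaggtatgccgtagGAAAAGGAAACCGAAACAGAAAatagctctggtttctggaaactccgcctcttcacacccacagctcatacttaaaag
Ifit1: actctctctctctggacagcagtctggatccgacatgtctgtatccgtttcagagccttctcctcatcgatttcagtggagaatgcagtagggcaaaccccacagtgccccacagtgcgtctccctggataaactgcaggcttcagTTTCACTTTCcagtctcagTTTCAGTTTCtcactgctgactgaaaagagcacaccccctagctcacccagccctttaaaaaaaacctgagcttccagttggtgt

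Of 15 tested EGFR family receptors and ligands, 4 were called higher in TPK and none lower; 2 were called with either TPK library left out, 3 and 5 without TPMR1 replicate 1 or 2, and 1 in the fit on 4 libraries. The 4 calls were 26.7% of the EGFR family list, against 7.03% of all genes tested. Erbb3, a receptor that couples to PI3K, was at 54.4 and 89.6 CPM against 1.28 and 1.33 CPM (log2 fold change 5.78 ± 0.47, adjusted p = 0.00393, edgeR). The ligand Tgfa was at 45.6 and 37.5 CPM against 1.55 and 3 CPM. Wnt ligands and feedback genes were called higher in 8 of 29 cases (27.6%, against 7.03% of all genes tested) and lower in none. The count does not separate ligands from feedback genes, and 20 of the 29 log2 fold changes were positive and 9 negative. Wnt7b, a ligand of uterine epithelium, was among those called, at 67.6 and 152 CPM against 0.0387 and 0.500 CPM. In the fit on 4 libraries no gene of the Wnt list was called. The list median of 1.36 on the log2 scale became 1.01 and 1.89 without TPK replicate 1 or 2, and 1.28 without TPMR1 replicate 1. Among 31 tested Hox genes 7 were called higher in TPK (22.6%, against 7.03% of all genes tested) and none lower. Of the 7 called, 6 lie in the Hoxb cluster on chromosome 11. The list did not move one way, with 14 positive and 17 negative log2 fold changes. Without overlap, 13 Hox genes were higher in TPK and 6 lower, against 31% and 26.5% of all genes tested. The genes given next were picked among those called higher. Hoxb6 was at 111 and 135 CPM against 0.620 and 1.67 CPM, Hoxb8 at 91.7 and 71.4 CPM against 0.774 and 2.22 CPM, and Hoxb5 at 23.1 and 18.3 CPM against 0.465 and 0.667 CPM. Over the Hox list the median was -0.88 on the log2 scale, which became 1.66 without TPMR1 replicate 1 (5 higher, none lower) and -1.45 without replicate 2 (5 higher and 10 lower). DESeq2 called 8 Hox genes higher and 9 lower, and in edgeR 2 genes were called with either TPK library left out, Hoxb8 not among them (adjusted p up to 0.0611). For inflammatory cytokines, 5 of 20 tested genes were called higher in TPK (25%, against 7.03% of all genes tested). Among them were the neutrophil attractant Cxcl5 (318 and 493 CPM against 0.232 and 9.12 CPM) and the alarmin Il33 (582 and 745 CPM against 2.40 and 5.73 CPM). Neutrophil genes themselves summed to 1028 and 1017 CPM in TPK and to 23.6 and 786 CPM in TPMR1, with none called. No cytokine was called with either TPK library left out and 2 were without TPMR1 replicate 1; without TPMR1 replicate 2, 11 cytokines and 7 neutrophil genes were called higher, the neutrophil median moving from 1.63 to 5.66 on the log2 scale.

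Of 26 tested genes of the VEGF, PDGF and FGF list, 4 were called lower in TPK (15.4%) and 1 higher (3.85%). Over all genes tested the shares were 3.31% and 7.03%. In the list 12 genes lay lower in both TPK libraries and 6 higher, against 26.5% and 31% of all genes tested. The list median of -1.12 on the log2 scale became -1.27 without TPMR1 replicate 1 and -0.39 without replicate 2. Vegfa, the main angiogenic ligand, was at 193 and 137 CPM in TPK and at 566 and 548 CPM in TPMR1 (log2 fold change -1.75 ± 0.43, adjusted p = 0.0496), its receptor Flt1 at 8.17 and 6.72 CPM against 29.5 and 186 CPM, and Nrp2, a co-receptor, at 39.3 and 36.7 CPM against 160 and 93.3 CPM. None of these calls held in the fit on 4 libraries or with either TPK library left out (adjusted p up to 0.25, for Vegfa), nor with either TPM library left out; Vegfa also failed with either TPMR1 library left out, Flt1 with either TPMCa library left out and Nrp2 without TPMR1 replicate 1. Endothelial marker genes summed to 359 and 124 CPM in TPK and to 339 and 1292 CPM in TPMR1. Of 15, 7 were lower in both TPK libraries (26.5% of all genes tested). Flt1 itself was the 1 gene called lower (6.67%, against 3.31% of all genes tested). The part of endothelial markers in the receptor values was not tested.

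Growth and division genes showed small differences. Of 30 nucleolar ribosome biogenesis genes, a class that Myc is known to drive, 4 were called lower in TPK (13.3%, against 3.31% of all genes tested) and none higher. All 30 lay lower in both TPK libraries, against 26.5% of all genes tested. Polr1a, the large subunit of RNA polymerase I, was at 69.8 and 70.5 CPM in TPK against 303 and 170 CPM in TPMR1, and Dkc1, which encodes the pseudouridine synthase dyskerin, was at 60.1 and 60.5 CPM against 116 and 158 CPM. The list median was -0.78 on the log2 scale, and DESeq2 called 14 of the 30, while edgeR called 5 and 2 without TPMR1 replicate 1 or 2. DNA replication genes were called lower in 4 of 30 cases (13.3%), among them E2f1 at 16.2 and 13.4 CPM against 49.5 and 54.1 CPM. Mitosis genes were called lower in 2 of 30 cases (6.67%), Bub1b and Ttk. In each of these lists 21 of 30 genes lay lower in both TPK libraries, against 26.5% of all genes tested. Higher in both lay 2 replication genes and no mitosis gene, against 31%. The list medians were -0.77 and -0.79. The mitosis median became -1.03 without TPMR1 replicate 1 and -0.43 without replicate 2. Mki67, the proliferation marker, was at 186 and 136 CPM against 255 and 307 CPM and was not called (adjusted p = 0.0932). No gene of these 3 lists was called in the fit on 4 libraries or with either TPK library left out (adjusted p up to 0.194 for Bub1b), and Polr1a, Dkc1, E2f1, Bub1b and Ttk also lost their calls with either TPM library left out; Dkc1, Bub1b and Ttk further depended on either TPMCa library and on 1 TPMR1 library. Of 2 CDK inhibitors called in opposite directions, Cdkn2b was at 116 and 93.6 CPM in TPK against 15.1 and 8 CPM, and Cdkn1c was at 6.29 and 11.1 CPM against 106 and 94.2 CPM; neither passed with either TPK library left out (adjusted p up to 0.105).

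Of 31 tested PI3K, Akt and mTOR genes 1 was called, Inppl1, which encodes the SHIP2 phosphatase, at 131 and 114 CPM in TPK against 386 and 234 CPM in TPMR1, and the list median was -0.04; none was called with either TPK library left out, and 5 were called lower and 3 higher without TPMR1 replicate 2. The PI3K list call was 3.23% of its list, against 3.31% of all genes tested called lower in TPK. In the ERK output list 1 of 24 was called higher (4.17%, against 7.03% of all genes tested). This was Epha2, at 230 and 185 CPM against 23.8 and 25.0 CPM. The list median was 0.02. That median lay between those of the 2 TPMR1 libraries taken singly: without replicate 1 it was -0.59 with 5 genes called lower and none higher, and without replicate 2 it was 1.80 with 5 higher and none lower. With either TPK library left out no ERK output gene was called. Of 22 p53 target genes, in tumors that both carry the Trp53 guide, 2 were called higher in TPK (9.09%) and 1 lower (4.55%). Over all genes tested the shares were 7.03% and 3.31%. None of the 22 was called in the fit on 4 libraries. Their median of -0.05 on the log2 scale became 0.23 without TPMR1 replicate 1 and 0.40 without replicate 2. Inppl1 lost its call with any one of 7 libraries left out (adjusted p up to 0.209) and Epha2 with any one of 6 left out (up to 0.163).

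**Figure D5:**
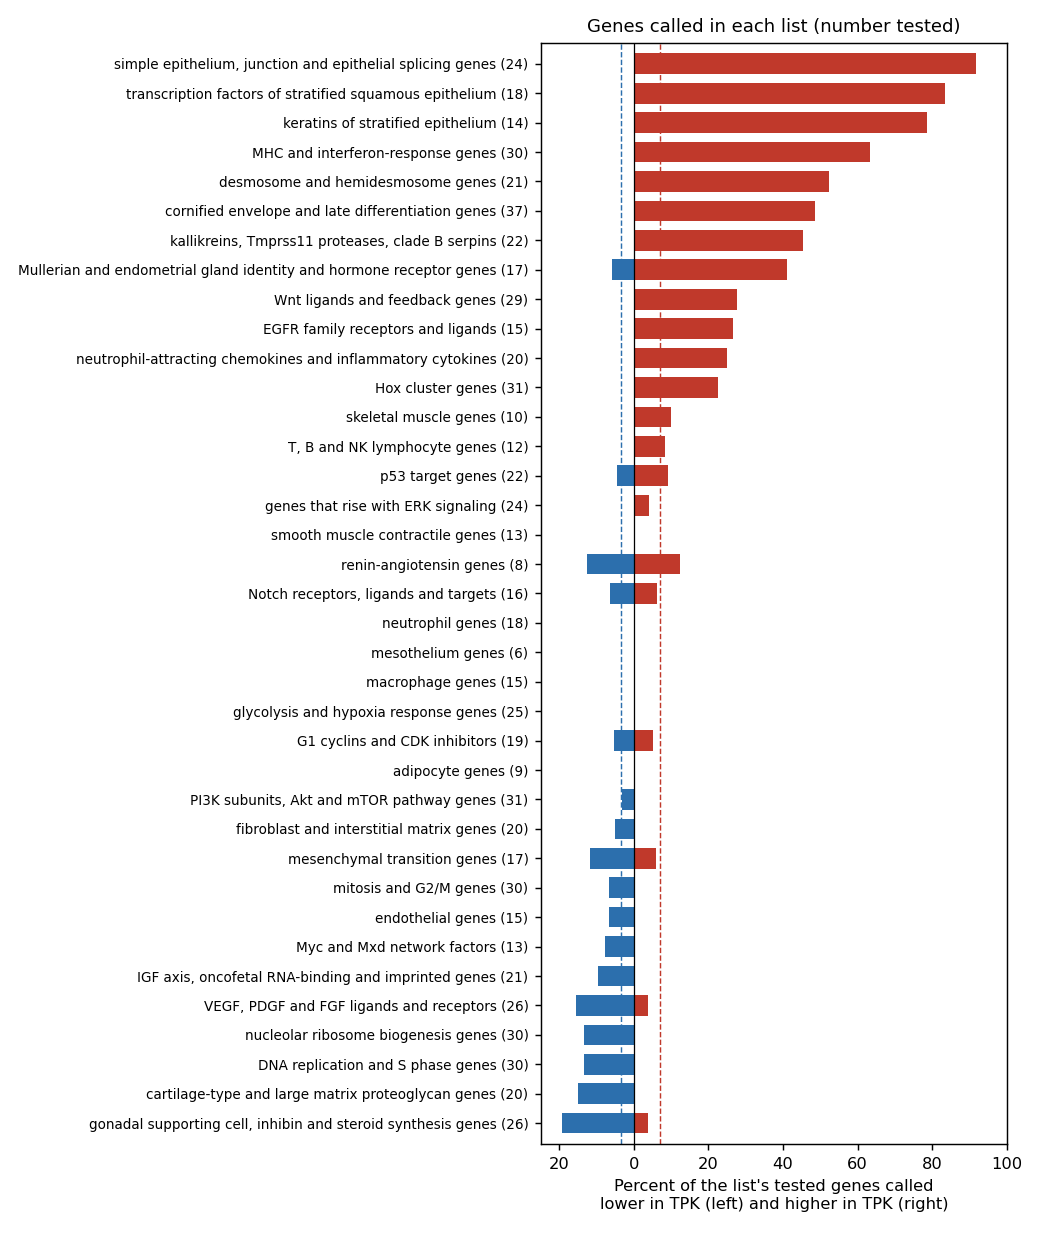
Percent of the tested genes of each list called higher in TPK (red, right) and lower in TPK (blue, left) by edgeR at an adjusted p under 0.05, with the number tested in brackets; dashed lines mark 7.03% and 3.31%, the shares among all genes. Epithelial, squamous and MHC lists reach far past the right line, and the gonadal list reaches furthest past the left line.

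TPMCa, which carries an sgRNA against Trp53, introduced Myc and an introduced mutant Pik3ca cDNA, shares the Trp53 guide and Myc with TPMR1. No gene passed between TPMR1 and TPMCa at an adjusted p under 0.05 by edgeR (0% of 15875), with 1867 at an unadjusted p under 0.05 and 806 called by DESeq2; without TPMR1 replicate 2, edgeR called 1379. Krt5 was at 0.0633 and 0.890 CPM and Cdh1 at 6.97 and 5.34 CPM in TPMCa, against 0 and 0 and 0.271 and 0.500 CPM in TPMR1. Zeb1 was at 46.8 and 44.2 CPM and Ifit1 at 6.21 and 7.62 CPM in TPMCa, against 46.5 and 51 CPM and 9.02 and 5.28 CPM in TPMR1. Of the gonadal genes, Gata4 was at 5.32 and 11.3 CPM, Cyp11a1 at 0.760 and 8.46 CPM and Nr5a1 at 0.507 and 5.23 CPM in TPMCa, below both TPMR1 libraries in each case; these differences did not pass (adjusted p from 0.287 for Gata4 to 0.372 for Cyp11a1). TPMR1 and TPMCa were each set against the same TPK libraries, so their contrasts with TPK share those samples.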

How the data were processed

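RNA-seq was measured in 8 libraries, 2 per model. The authors deposited raw counts per gene (unit counts, STAR and mm10 per the labels; the counting tool and strandedness are not given in the sources used here), and a second table of normalized values was not used. The TPM columns carry the header TPMS. From the counts, genes kept by filterByExpr were fitted with edgeR 4.0.16 (R 4.3.3) by TMM and the quasi-likelihood test over all 8 libraries, contrast TPK minus TPMR1, with Benjamini-Hochberg adjustment at 0.05. DESeq2 1.42.0 and the other settings described below were alternatives. Library depth was 15748396 to 26943611 counts in these 4 libraries, so 3 counts equal 0.116 to 0.198 CPM; intervals and floors cover counting error only. On simulated counts with 200 changed genes over 15875 genes, the test recovered 11.9% of 4-fold, 65.7% of 16-fold and 87.9% of 64-fold changes, with 3 unchanged genes called. The simulation gave each gene the same spread in every model and changed only genes above a minimum mean count. It left out the wider spread between the TPMR1 libraries, so these rates need not hold for this comparison.

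Named genes are the 10 largest changes each way at 16 CPM or more, key genes of the 39 lists, and up to 3 lowest adjusted p per list and direction. The text gives 96 of these 200 genes, picked with their values known, and B2m, which the rule did not take. Of 824 list entries, 815 matched a row. The members, lists and motifs were chosen with earlier results of these data known. Promoter windows were shortened after a first search to the 250 bases before the start, to leave out transcribed bases; 5 motifs were searched (AP-1, interferon response core, NR5A, E-box and GATA), and the promoters printed were picked afterwards from those with a match. Sequences and positions come from RefSeq promoters (GRCm38.p6), GENCODE and the study's guide list, and 127 of 200 named genes had a promoter entry. Results on some genes, engineered ones among them, are not reported here.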

Additional observations from a re-analysis of the deposited data

How the results depend on the processing

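The called genes between TPK and TPMR1 numbered 1641 (1116 higher and 525 lower in TPK). They became 4078 (2263 and 1815) with DESeq2 and 301 (278 and 23) in the fit on the 4 libraries of the 2 models, in which fewer samples estimate the spread. All 1641 were among the DESeq2 calls, and 294 of them remained in the fit on 4 libraries. With one library left out the count ran from 208 to 2659 (198 to 1579 higher, 10 to 1080 lower), lowest without TPK replicate 2, then TPK replicate 1, and highest without TPMR1 replicate 2; leaving out either TPM replicate gave 657 and 685. No shared gene changed sign under any alternative. Deviations of same-numbered libraries correlated between -0.0687 and -0.00819 over genes, so no pairing by replicate number was seen. With 2 libraries per model, a pairing that affects few genes could be missed. With a replicate block 1038 genes were called, 252 of them lower. TPMR1 against TPMCa had 0 called with edgeR and 806 with DESeq2, and 0 to 1379 with one library left out. With library size alone the median of all genes moved to -0.15 on the log2 scale, and 60.6% of 1656 calls were higher in TPK against 68% of 1641. DESeq2 gave 55.5% higher. The sizes of effect under a few counts, such as Cyp17a1, depend on depth and on the floor of 3 counts.
Of 97 genes named, 79 were called and all 79 kept their direction under every alternative tried, although 46 lost the call in at least one; 11 uncalled ones passed in at least one. With library size alone Pik3ca moved to -0.0886 on the log2 scale. With one library left out, log2 fold changes that changed sign, none of them called in the fit as reported, ran from -1.72 to 9.53 for Acta1, -0.74 to 0.12 for Esr1, -0.10 to 0.16 for Pik3ca, -0.55 to 0.18 for Trp53 and -2.36 to 0.33 for Vim.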

Other observations

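Skeletal muscle genes stood out in one TPK library. The list summed to 1423 CPM in TPK replicate 2 and to 18.9 CPM in TPK replicate 1, against 86.4 and 23.6 CPM in TPMR1. Acta1, the sarcomeric actin, was at 0.229 and 563 CPM in TPK against 0.387 and 1.17 CPM in TPMR1 and was not called; Mb, the myoglobin gene, was called, at 4.46 and 34.1 CPM against 0.116 and 0 CPM, a call lost with any library of TPK, TPM or TPMR1 left out (adjusted p up to 0.161). The part of muscle tissue in other TPK values was not tested.

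Adipocyte genes summed to 396 and 40.3 CPM in TPK and to 337 and 184 CPM in TPMR1, smooth muscle genes to 536 and 481 CPM against 281 and 1070 CPM, and mesothelium genes to 109 and 82.7 CPM against 74.4 and 51.4 CPM, with none called by edgeR. The 4 Y-linked genes were at 0 in all 4 libraries. Of the other motifs searched, the NR5A site AAGGTCA was in the promoter of 1 of 13 gonadal and steroid genes with an entry (7.69%) and in 3.76% of all genes with an entry, and the GATA site AGATAA in 3 of 13 (23.1%) and in 7.53% of all, 9.85% of those called higher in TPK and 6.08% of those called lower. Neither occurred in the promoter of Cyp11a1. The E-box CACGTG was in 1 of 25 ribosome biogenesis genes (4%), in 9.32% of all, in 6.52% of genes called higher and in 13.2% of those called lower.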
